A study of Mus musculus with 4 samples.

Results

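The baseline RNA content of cultured mouse lung endothelial cells was described from the cells that received a control siRNA and no added dexamethasone. Genes were called expressed at 1 FPKM or more (a count of sequenced fragments divided by transcript length and by library size). By that rule 11095 of the 23997 genes in the table were expressed, or 46.2%. The cells were lung endothelial cells of C57BL/6 mice, grown in EBM-2 medium with 10% serum and treated with control siRNA for 48 h. The series also holds cells with siRNA against the glucocorticoid receptor and cells given 100 nM dexamethasone for 18 h, and those columns are used here only for ranges beside a value and for alternative settings. Whether the cells were primary or a line, how they were purified and how often they had been passaged is not stated in the labels.

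Endothelial cells line every blood and lymph vessel. They seal the vessel wall through VE-cadherin and claudin junctions, keep the blood fluid, set vessel tone through nitric oxide and prostacyclin, and read flow and growth factor signals through receptors such as the VEGF and Tie families. In the lung they form a dense capillary bed with general capillary cells and aerocytes, the thin cells that take part in gas exchange, besides arteries, veins and lymphatics.

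The control siRNA condition is a single column of values, while the submitters describe 3 replicates per condition. Whether the column is 1 library or several merged ones is not stated, so its values have no SD, no n and no test. The depth behind them could be read from the lowest values. Among 841 genes with 1 annotated transcript and less than 0.5 FPKM, the product of FPKM and transcript length less 215 bases was the same, within 1%, in 130 genes. It was 2 times that step in 61 genes and 3 times in 48, while 1.5 times occurred in 0 genes and 2.5 times in 1. Read as 1, 2 and 3 fragments, the step corresponds to about 38700000 fragments behind the column. On that estimate 1 FPKM of a 2 kb transcript rests on 69.2 fragments, with an exact 95% Poisson interval of 0.776 to 1.26 FPKM that covers counting error alone. A count of 0 fragments would allow up to 3 fragments, or 0.0434 FPKM for 2 kb. A listed 0 may not always be such a count. Vamp7, a vesicle fusion protein used by most cells, was listed at 0 in all 4 columns. Its symbol matched a gene on the sequence GL456233.1, outside the assembled chromosomes, for which no transcript length was found. Why its row is at 0 was not tested. Of the 11095 expressed genes, 10880 were at 1 FPKM or more in the other columns too.

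Abundance was spread over more than 3 orders of magnitude. There were 8206 genes listed at 0 (34.2%) and 4696 above 0 but under 1 FPKM (19.6%). Between 1 and 10 FPKM stood 4158 genes, between 10 and 100 FPKM 5956 genes, and at 100 FPKM or more 981 genes. The median over all genes was 0.402 FPKM, and over the expressed genes 15.2 FPKM. The threshold fell in a flat stretch of the distribution, with 700 genes from 0.5 to 1 FPKM and 803 genes from 1 to 2 FPKM. Just inside it were the small GTPase Rhof at 1.01, lipoprotein lipase Lpl at 1.02 and the thrombin receptor F2r at 1.02 FPKM. Just outside were the glycolysis regulator Pfkfb4 at 0.998, the neurotrophin Ntf3 at 0.996 and Igf1 at 0.961 FPKM.

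**Figure D1:**
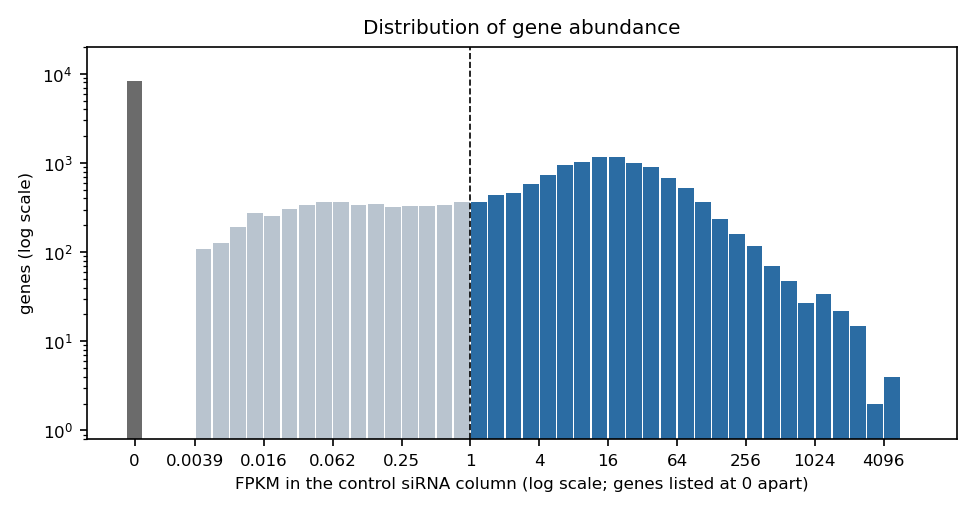
Number of genes (y axis, log scale) by FPKM in the control siRNA column (x axis, log scale), with genes listed at 0 as a separate grey bar and the line at 1 FPKM marking the threshold. The 8206 genes at 0 stand apart, and the expressed genes (blue) have their highest bars near the median of 15.2 FPKM.

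The 10 most abundant genes held 6.28% of the summed FPKM, the top 100 held 28.1%, the top 1000 held 62.9% and the top 5000 held 91.7%. Ferritin and the translation apparatus led. Ftl1, the light chain of the iron store ferritin, stood at 5007 FPKM, and its partner Fth1, the heavy chain, at 2709 FPKM. Eef1a1, the elongation factor that brings aminoacyl-tRNA to the ribosome, had 4379 FPKM, and Tpt1, a translationally controlled growth protein, had 2785 FPKM. Of the 30 most abundant genes, leaving out small RNA, ribosomal RNA, predicted, clone-named and pseudogene rows, 18 coded for cytosolic ribosomal proteins, among them Rplp1 at 4276, Rpl41 at 4146, Rps12 at 3578 and Rps2 at 3528 FPKM. The remaining places went to the cytoskeleton and a few others: Tmsb10, which binds actin monomers, at 2302 FPKM, Actg1 and Actb, the non-muscle actins, at 2260 and 2247 FPKM, the actin-severing Cfl1 at 2153 FPKM, the intermediate filament protein Vim at 1924 FPKM and the prolyl isomerase Ppia at 1903 FPKM. The surface antigen Ly6a (Sca-1), a marker of many endothelial and progenitor cells in mice, also reached this rank with 2050 FPKM. These levels carry an uncertainty of their own, since 27 of the 30 share at least 10% of their 31-base words with other genes, mostly the ribosomal and actin genes; Fth1 (3.24%), Vim (0.187%) and Rpl39 (9.06%) do not.

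The markers that define the cell type were abundant. Cdh5, which codes for VE-cadherin, the adhesion protein of endothelial junctions, had 436 FPKM and ranked 180 among all genes (mm10 chromosome 8, 104101625 to 104144511). Cldn5, the main claudin of endothelial tight junctions, had 493 FPKM and ranked 160, and Pecam1, a cell contact protein of endothelium, platelets and leukocytes, had 280 FPKM and ranked 302. Of 40 pan-endothelial genes, 39 were expressed, against 46.2% of all genes, and their median was 146 FPKM. Egfl7, a secreted regulator of vessel tubes, stood at 521 FPKM, the transcription factor Sox18 at 513 and Ramp2, the partner that turns Calcrl into an adrenomedullin receptor, at 494. The junction protein Esam was at 369, the orphan receptor Tie1 at 337, the sialomucin Emcn at 247 and Cd34 at 242 FPKM. At the low end were Robo4 at 22.5, the von Willebrand factor gene Vwf at 4.10 and Tmem100, a BMP9-induced membrane protein, at 0.250 FPKM, which was the member not expressed.

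Markers of vessel segments were present side by side. The general capillary list had 10 of 16 members expressed; Plvap, which forms the diaphragms of caveolae and fenestrae, had 362 FPKM, Gpihbp1, which holds lipoprotein lipase on the capillary wall, 353, and Cd93 237. The adult capillary receptor gene Aplnr was at 0.116 FPKM. In the aerocyte list 11 of 16 were expressed. Ednrb, the endothelin B receptor, led it with 607 FPKM, followed by Kdr at 89.3 and Apln at 42.6, while the carbonic anhydrase Car4 was at 0.0237 FPKM. Some genes, Kdr among them, stand in more than 1 of these lists.

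Arterial markers were expressed in 18 of 22 cases. Plac8 had 1322 FPKM, the ephrin ligand Efnb2 154, the elastic fibre protein Fbln5 103, the Notch ligands Jag2 and Dll4 49.2 and 30.7, and the arterial connexin Gja5 10.8 FPKM. The venous list had 14 of 16 expressed: the peptide-processing enzyme Cpe at 132 FPKM, the LIM protein Csrp2 at 119, the Efnb2 receptor Ephb4 at 113 FPKM, the venous factor Nr2f2 at 38.7 and the leukocyte-rolling receptor Selp at 33.0. The venule gene Ackr1 was listed at 0. Of the lymphatic markers 8 of 18 were expressed, a share close to the 46.2% of all genes. Lyve1, a hyaluronan receptor that lung capillaries can also carry, had 373 FPKM and the VEGF-C receptor Flt4 27.96. Prox1, the transcription factor that sets lymphatic fate, had 0.179 FPKM, and Pdpn, Reln and Ccl21a were listed at 0.

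Genes of other cell types were mostly near 0. In bulk RNA fewer cells of a type and less RNA per cell cannot be told apart. No granulocyte or mast cell gene of 15 was expressed, and the highest, Cpa3, had 0.188 FPKM. The leukocyte antigen Ptprc (CD45), the T cell receptor chain gene Cd3e, the myeloid factor Spi1 and the epithelial gene Epcam were listed at 0. Macrophage genes passed in 2 of 20 cases, where the lysosomal protein Cd68 had 176 FPKM but Csf1r 0.220 and Lyz2 0.214 FPKM. In the lymphocyte list 1 of 19 passed, the kinase gene Lck at 9.15 FPKM.

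Of the pericyte and smooth muscle list 2 of 18 were expressed, Tagln at 8.76 and smooth muscle actin Acta2 at 5.65 FPKM, while Pdgfrb stood at 0.20 and Rgs5 at 0. Fibroblast genes passed in 5 of 20 cases. Npnt, a basement membrane ligand of integrins, had 140 FPKM and Col13a1 13.9, but the fibroblast genes Col1a1, Col1a2, Dcn and Pdgfra had 0.127, 0.0105, 0.387 and 0.160 FPKM. Lung epithelial genes passed in 4 of 22 cases, led by the lipid transporter Abca3 at 27.9 FPKM, with surfactant protein C (Sftpc) at 0.0869. Erythroid and platelet genes passed in 2 of 17 cases (Pf4 at 5.89 and Gp9 at 1.59 FPKM), mesothelial genes in 2 of 10 (Cpe, also in the venous list, at 132 and Krt18 at 3.85 FPKM) and genes of neurons, muscle, liver and fat in 3 of 24. Most genes of these lists were below 1 FPKM while single members were not, and the part of such cells in the results below was not tested.

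**Figure D2:**
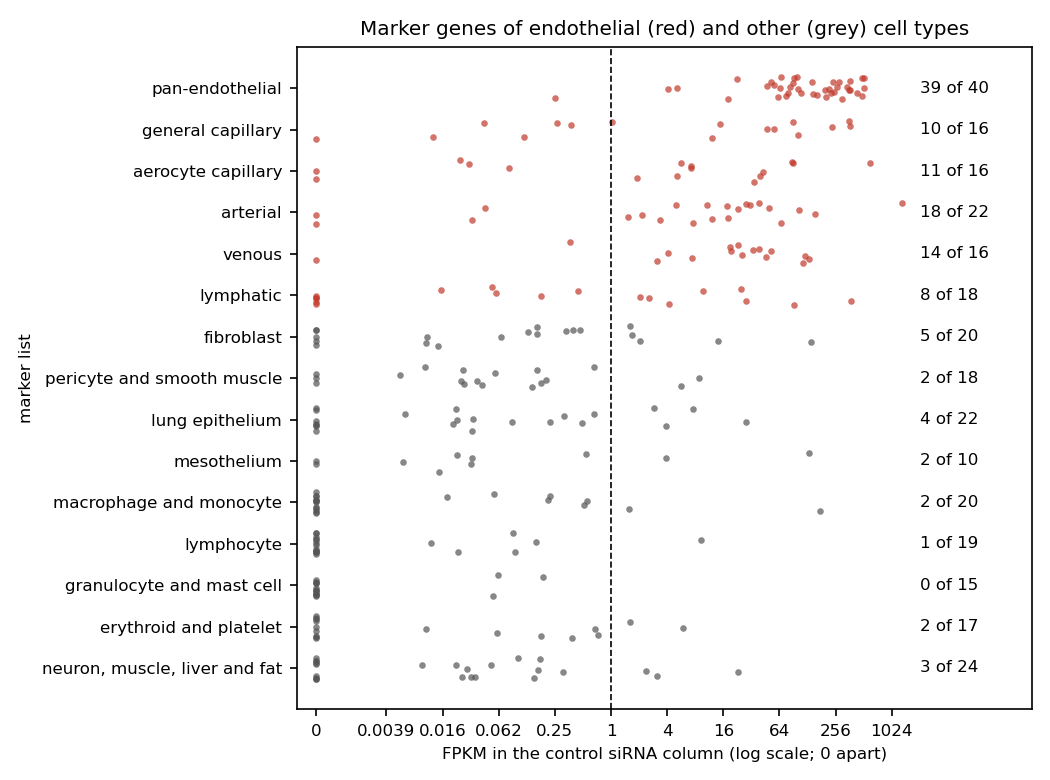
FPKM of every marker gene (points; x axis, log scale, with 0 apart) by marker list (rows), with endothelial lists in red, other cell types in grey, the threshold of 1 FPKM as a dashed line, and the number expressed at the right. The pan-endothelial row lies almost wholly to the right of the line (39 of 40), while most grey points lie left of it or at 0.

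Promoter sequence was set beside abundance, because genes used by nearly all cells tend to start in stretches rich in CpG dinucleotides, while many tissue-restricted genes do not. For 16753 genes the RefSeq table (GRCm38.p6, the assembly also called mm10) holds the bases around a start site. The 250 bases before the most upstream start in RefSeq were used. These 7 promoters are shown, 5′ to 3′ on the gene's own strand with each CpG in capitals. They span the range from endothelial genes with few CpG to abundant genes of all cells with many. The choice was made after their values were seen. Starts differ by annotation: GENCODE M21 starts Egfl7 at 26580014, Tpt1 at 75845093 and Actg1 at 120348542. By GENCODE the Egfl7 window, the most upstream of 3 in RefSeq, lies inside the gene. Those of Tpt1 and Actg1 lie partly inside.

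The promoter of Emcn (246.8 FPKM) lies at chr3:137340828-137341077 on the plus strand and holds 1 CpG.
Emcn: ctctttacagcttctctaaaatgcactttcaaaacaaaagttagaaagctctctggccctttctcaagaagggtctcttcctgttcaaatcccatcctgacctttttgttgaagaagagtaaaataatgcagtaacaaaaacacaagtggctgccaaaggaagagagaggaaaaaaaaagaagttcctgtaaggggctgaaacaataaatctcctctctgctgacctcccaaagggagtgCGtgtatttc
At chr2:26580833-26581082, plus strand, Egfl7 (521 FPKM) has 3 CpG.
Egfl7: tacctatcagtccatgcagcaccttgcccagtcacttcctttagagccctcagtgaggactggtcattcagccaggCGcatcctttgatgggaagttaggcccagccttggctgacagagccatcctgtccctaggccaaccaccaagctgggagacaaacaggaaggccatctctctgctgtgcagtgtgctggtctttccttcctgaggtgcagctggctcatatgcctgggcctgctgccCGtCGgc
The promoter of Cd34 (242 FPKM) lies at chr1:194938571-194938820 on the plus strand and holds 6 CpG.
Cd34: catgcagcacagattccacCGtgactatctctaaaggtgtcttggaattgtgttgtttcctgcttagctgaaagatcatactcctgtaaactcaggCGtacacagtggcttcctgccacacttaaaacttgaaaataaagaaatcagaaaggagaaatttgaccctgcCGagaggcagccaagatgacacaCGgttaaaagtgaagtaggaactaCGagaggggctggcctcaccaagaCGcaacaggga
At chr16:18776597-18776846, plus strand, Cldn5 (493 FPKM) has 12 CpG.
Cldn5: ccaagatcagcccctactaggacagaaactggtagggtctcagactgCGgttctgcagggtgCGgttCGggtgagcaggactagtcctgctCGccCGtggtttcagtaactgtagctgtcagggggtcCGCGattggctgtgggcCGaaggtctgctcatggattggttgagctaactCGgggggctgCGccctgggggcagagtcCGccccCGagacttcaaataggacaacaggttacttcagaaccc
The promoter of Mcam (262 FPKM) lies at chr9:44134408-44134657 on the plus strand and holds 25 CpG.
Mcam: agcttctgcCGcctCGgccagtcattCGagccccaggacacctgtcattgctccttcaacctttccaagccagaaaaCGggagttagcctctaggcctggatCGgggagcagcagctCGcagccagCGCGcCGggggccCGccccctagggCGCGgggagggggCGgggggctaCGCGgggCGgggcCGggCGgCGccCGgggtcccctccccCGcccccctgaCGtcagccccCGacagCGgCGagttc
At chr14:75845006-75845255, plus strand, Tpt1 (2785 FPKM) has 33 CpG.
Tpt1: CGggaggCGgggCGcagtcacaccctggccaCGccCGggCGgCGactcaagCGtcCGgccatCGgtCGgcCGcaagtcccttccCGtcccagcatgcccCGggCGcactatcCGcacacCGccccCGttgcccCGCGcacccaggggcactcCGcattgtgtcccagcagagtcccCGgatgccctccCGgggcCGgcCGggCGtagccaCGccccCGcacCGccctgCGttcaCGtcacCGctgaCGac
The promoter of Actg1 (2260 FPKM) lies at chr11:120348496-120348745 on the minus strand and holds 43 CpG.
Actg1: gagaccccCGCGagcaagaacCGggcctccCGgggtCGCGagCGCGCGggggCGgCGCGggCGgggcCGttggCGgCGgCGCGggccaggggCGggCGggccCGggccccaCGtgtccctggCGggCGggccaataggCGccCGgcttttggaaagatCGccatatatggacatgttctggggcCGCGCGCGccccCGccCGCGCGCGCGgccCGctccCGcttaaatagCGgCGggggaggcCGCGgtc

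The endothelial genes shown ranged from 1 CpG in Emcn to 25 in Mcam (CD146, an adhesion protein) at levels from 242 to 521 FPKM. They were picked to span the CpG range, so they cannot tell how CpG content and abundance go together. Windows were found for 20 of the 39 expressed pan-endothelial genes. Their median was 5.5 CpG, and 12 of the 20 had fewer than 10. Among all 1458 genes of 50 to 550 FPKM with a window the median was 17 CpG, and 18.9% had fewer than 10. The ranges differ, since Robo4 at 22.5 and Cyyr1 at 18.1 FPKM lay below 50 FPKM. Both are among the 12. Low counts were found at Tek (2), Robo4 (2), Calcrl (3), Eng (4), Clec14a (4) and Myct1 (3), and high counts at Sox13 (31) and She (32). Kdr, the main VEGF receptor, had 16.

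Over the whole column CpG content went with the abundance class up to about 10 FPKM and no further. The median was 2 CpG in the 5138 promoters of genes listed at 0, 7 in the class above 0 to 1 FPKM, 15 from 1 to 10 FPKM, and 17 both from 10 to 100 and at 100 FPKM or more. The GC box GGGCGG, searched on both strands as were the other motifs, was in 15.9% of promoters of genes at 0, 39.8%, 58.7% and 64.1% in the next classes and 61.6% in the top class, against 43.5% of all 16753. This motif holds a CpG itself and so overlaps the CpG count. The ETS motif ACTTCCGG, which also holds a CpG, went from 0.642% in genes at 0 to 6.996% in the top class, against 3.84% of all. CCAAT showed no such order: its share ran from 33.8% to 38.4% over the 5 classes, against 36.1% of all.

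The TATA box TATAAA ran the other way and then turned. It was in 22.6% of promoters of genes at 0, 10.9% above 0 to 1 FPKM, 5.47% from 1 to 10 FPKM, 5.37% from 10 to 100 FPKM, and 9.33% at 100 FPKM or more, against 11.9% of all promoters. Transcript length rose to the class of 1 to 10 FPKM and fell above it. The median longest annotated transcript of protein-coding genes was 2223 bases for genes at 0 and 3048 bases above 0 to 1 FPKM. It was 3790 bases from 1 to 10 FPKM, 3384 bases from 10 to 100 FPKM and 2133 bases in the top class. A match to a motif describes these letters in this window and is not a measured binding site.

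**Figure D3:**
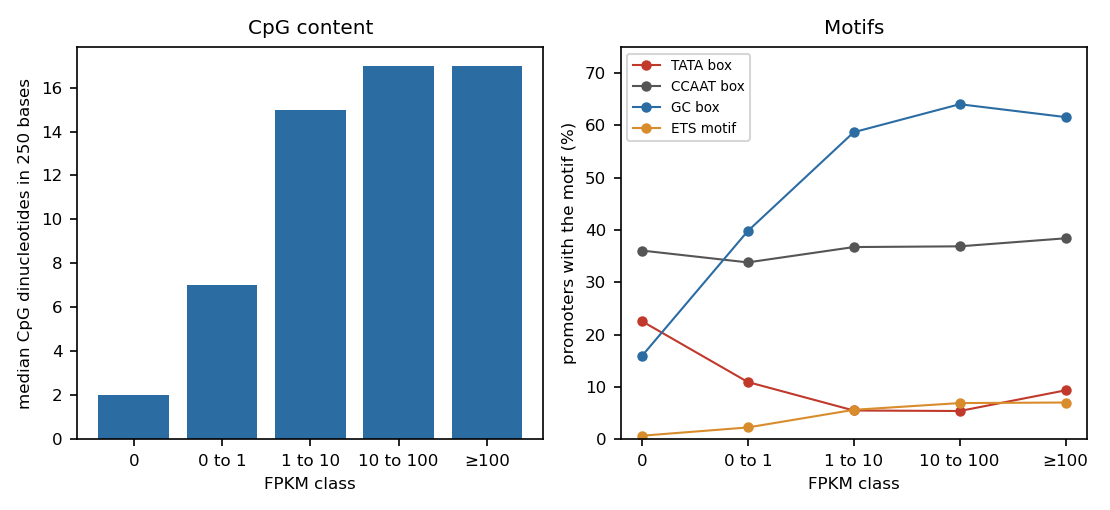
Left, median number of CpG dinucleotides in the 250 bases before the start site by FPKM class (x axis); right, percent of promoters with the TATA box (red), CCAAT box (grey), GC box (blue) and ETS motif (orange). CpG and GC box climb to the class of 10 to 100 FPKM (17 CpG, 64.1%), the TATA box is lowest there (5.37%) and is at 9.33% in the top class.

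Transcription factors of the endothelial lineage stood high for regulators. Of 19 SOX genes 5 were expressed: the vascular SOXF members Sox18 at 513, Sox7 at 100.3 and Sox17 at 66.3 FPKM, then Sox13 at 61.9 and Sox4 at 14.0. Of the inhibitors of DNA binding, which BMP signals induce, 3 of 4 were expressed, with Id1 at 558 and Id3 at 451 FPKM. ETS factors, which bind enhancers of most endothelial genes, were expressed in 17 of 26 cases: Elk3 at 137, Ets2 at 133, Erg at 75.8, Fli1 at 64.4 and Ets1 at 43.1 FPKM. Etv2, which acts in the embryo to start the lineage, had 0.0308 FPKM, and the blood factors Spi1 and Spic were listed at 0.

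Blood-vessel partners of these factors were present too. Gata2 had 92.1 FPKM, Lmo2 46.8, Hhex 33.2, Tal1 22.3 and Lyl1 21.99. Bcl6b, a repressor found in endothelium, had 156 FPKM. KLF factors, induced by flow in vivo, were led by Klf2 at 155 and Klf4 at 119 FPKM, and all 15 genes of the flow-responsive list were expressed. Foxf1, a lung mesoderm factor also active in lung capillaries, led the 15 expressed of 44 forkhead genes with 77.4 FPKM.

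HOX genes differed by cluster in the number of members expressed. In HOXA 10 of 11 genes were expressed, led by the lung gene Hoxa5 at 50.4 FPKM and followed by Hoxa7 at 15.6 and Hoxa3 at 12.9. In HOXB 7 of 10 were expressed, led by Hoxb7 at 37.3 FPKM, with Hoxb9 at 0.0730. In HOXD 2 of 9 passed, Hoxd4 at 9.87 and Hoxd8 at 5.71 FPKM. All 9 HOXC genes were listed at 0. Other lineage factors were isolated: none of 9 PAX genes passed, and Lhx6, a homeobox factor known from interneurons and teeth, held 98.4% of the LIM homeobox family's FPKM with 36.5 FPKM.

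Junction families were carried by a few members. Of 25 claudins 4 were expressed: Cldn5 with 75.5% of the family's FPKM, Cldn15 at 129, Cldn25 at 22.2 and Cldn12 at 7.42 FPKM. Of 32 classical and desmosomal cadherins 3 passed, and Cdh5 held 91.3% of the sum, ahead of the GPI-linked Cdh13 at 37.0 and Cdh24 at 2.73 FPKM; neural cadherin Cdh2, which many cultured endothelial cells also make, was at 0.334 and epithelial Cdh1 at 0.00619. Gap junction genes passed in 3 of 20 cases, and all 3 are the known vascular connexins: Gja1 (Cx43) at 33.6, Gja5 (Cx40) at 10.8 and Gja4 (Cx37) at 7.64 FPKM. The catenins behind the cadherins were high, with Ctnnb1 (beta-catenin) at 412 and Ctnna1 at 129 FPKM.

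Adhesion and surface genes were mostly expressed, 21 of 26. The tetraspanin Cd63 of Weibel-Palade bodies and endosomes had 1027 FPKM, Icam2 219 and Jam2 136. The leukocyte receptors that inflammation raises were lower but above threshold, with Icam1 at 40.0, Selp at 33.0, Vcam1 at 18.9 and Sele at 11.04 FPKM. Related antigens of the Ly6 family stood near the top of the column: Ly6a, Ly6e at 1105 and Ly6c1 at 592 FPKM, while Ly6c2, close in sequence and known from monocytes, was at 0.0872. Among genes of the glycocalyx, the sugar coat of the vessel wall, podocalyxin (Podxl) had 220 FPKM. Heparan sulphate carriers were lower, with Hspg2 at 31.4, Sdc3 at 27.7 and all glypicans under 1 FPKM (Gpc2 highest, at 0.395). The proteoglycan serglycin (Srgn), counted in the same list, had 681 FPKM.

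Receptor tyrosine kinases passed in 21 of 58 cases. The vascular ones led: Tie1 at 337, Ephb4 at 113, Kdr (VEGFR2) at 89.3, Flt1 (VEGFR1) at 78.9 and Tek (Tie2) at 55.9 FPKM. Then came the FGF receptors Fgfr1 at 40.9 and Fgfr3 at 36.9 FPKM. The insulin receptor Insr had 25.2 FPKM and its relative Igf1r, which binds IGF1, 0.0398. Receptors of mesenchyme and epithelium were below threshold, with Pdgfra at 0.160, Pdgfrb at 0.20, Egfr at 0.0271 and Axl at 0.107 FPKM.

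Among 66 vasoactive and other G protein coupled receptor genes 32 were expressed, a share close to the 46.2% of all genes. Ednrb stood at 607 FPKM while Ednra, the endothelin receptor of smooth muscle, was at 0.0681. S1pr1, which keeps the barrier tight, had 204 FPKM and the next member, S1pr2, 1.496. Calcrl had 196 FPKM with its partners Ramp2 at 494 and Ramp3 at 94.9, and Ramp1, which would make it a CGRP receptor, was listed at 0. Angiotensin receptors Agtr1a, Agtr1b and Agtr2 were listed at 0, and the prostacyclin receptor Ptgir had 1.53 FPKM.

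Of 52 growth factor and angiocrine genes 32 were expressed. Kitl (stem cell factor) had 237 FPKM, Tgfb1 140, Cxcl12 101 and Pdgfb, which recruits pericytes, 77.9. The VEGF ligands above threshold were Pgf at 41.8, Vegfb at 36.1, Vegfc at 29.4 and Vegfa at 17.8 FPKM, and Figf (VEGF-D) was at 0.296. Among ligand families 9 of 20 semaphorins passed, led by Sema3f at 78.7 and Sema7a at 61.2 FPKM, a share close to the 46.2% of all genes. Of CXC chemokines 6 of 16 passed, and of BMP and GDF genes 6 of 21. Fgf1 at 2.75 FPKM was the expressed member of 22 FGF genes and Wnt9b at 17.5 FPKM that of 19 Wnt genes. Endothelin Edn1 had 7.69 FPKM, Angpt2 3.50 and Angpt1 0.279, and Esm1, a tip cell proteoglycan, was listed at 0.

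Of 41 basement membrane and related matrix genes 27 were expressed. Sparc, a collagen-binding glycoprotein, had 1079 FPKM, Col4a1 and Col4a2, the chains of vascular collagen IV, 464 and 260, Col18a1 237 and nidogen Nid1 100.04. The remaining collagen IV chains Col4a3, Col4a4 and Col4a6 were under 0.02 FPKM each (0.00929, 0.00342 and 0.0121), and Col4a5 was at 1.14. Of all 44 collagens 13 were expressed, and Col4a1 alone held 43.4% of their FPKM. Chains of other collagen types were among the 13, with Col8a1 at 48.0, Col6a3 at 21.5 and Col3a1 at 1.59 FPKM. Laminin chains had Lamc1 at 56.2, Lama5 at 40.0, Lama4 at 6.06, Lamb1 at 8.16 and Lamb2 at 5.32 FPKM, while the muscle chain Lama2 was at 0.00274. Integrins that bind these proteins followed, with Itgb1 at 286, Itga6 at 187, Itga5 at 156 and Itga3 at 135 FPKM.

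Families of closely related genes mostly had 1 leading member. In 54 groups of isoenzymes and paralogs, put together with these values known, the leading gene held at least 90% of the FPKM in 33 and at least 99% in 20. A single gene was expressed in 17 groups. Nos3, the endothelial nitric oxide synthase, had 227 FPKM, against Nos2 at 0.626 and Nos1 at 0.00622. The non-muscle myosin Myh9 had 229 FPKM against Myh10 at 1.68. Among the beta chains of the sodium pump Atp1b3 had 185 FPKM and Atp1b1 0.273. Rac1 had 323 FPKM against the blood-cell form Rac2 at 0.00919, and Akt1 195 against Akt2 at 7.76. In 51 of the 54 groups the leader was the same in the other columns. With genes that share at least 10% of their 31-base words left out, 39 groups kept their leader, and in the other 15 the leader was itself such a gene.

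Glycolysis showed this pattern at nearly each step. From Aldoa to Ldha, however, the leaders named share 17.0% (Aldoa) to 54.7% (Pgk1) of their 31-base words with other genes, so their levels are less certain. Glucose enters through Slc2a1 (39.7 FPKM), against 1.64 for Slc2a3. Hk1 had 89.9 FPKM and Hk2 3.77, Aldoa 425 and Aldoc 0.191, Gapdh 792, Pgk1 459, Pgam1 348, Eno1 170, Pkm 645 with Pklr at 0, and Ldha 384 with Ldhb at 1.56. Phosphofructokinase was the exception: Pfkp at 27.9, Pfkl at 21.6 and Pfkm at 19.8 FPKM shared the step, and the leader held 40.3%. In all, 8 of the 54 groups had a leader below 60%; others were the p38 kinases, where Mapk14 held 40.5%, the D cyclins, where Ccnd1 held 58.6%, the actins, where Actg1 held 50.1%, and the adenine nucleotide translocases, with Slc25a4 at 396 and Slc25a5 at 325 FPKM. Arginase was the group with no expressed gene (Arg1 0.225, Arg2 0.0858).

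**Figure D4:**
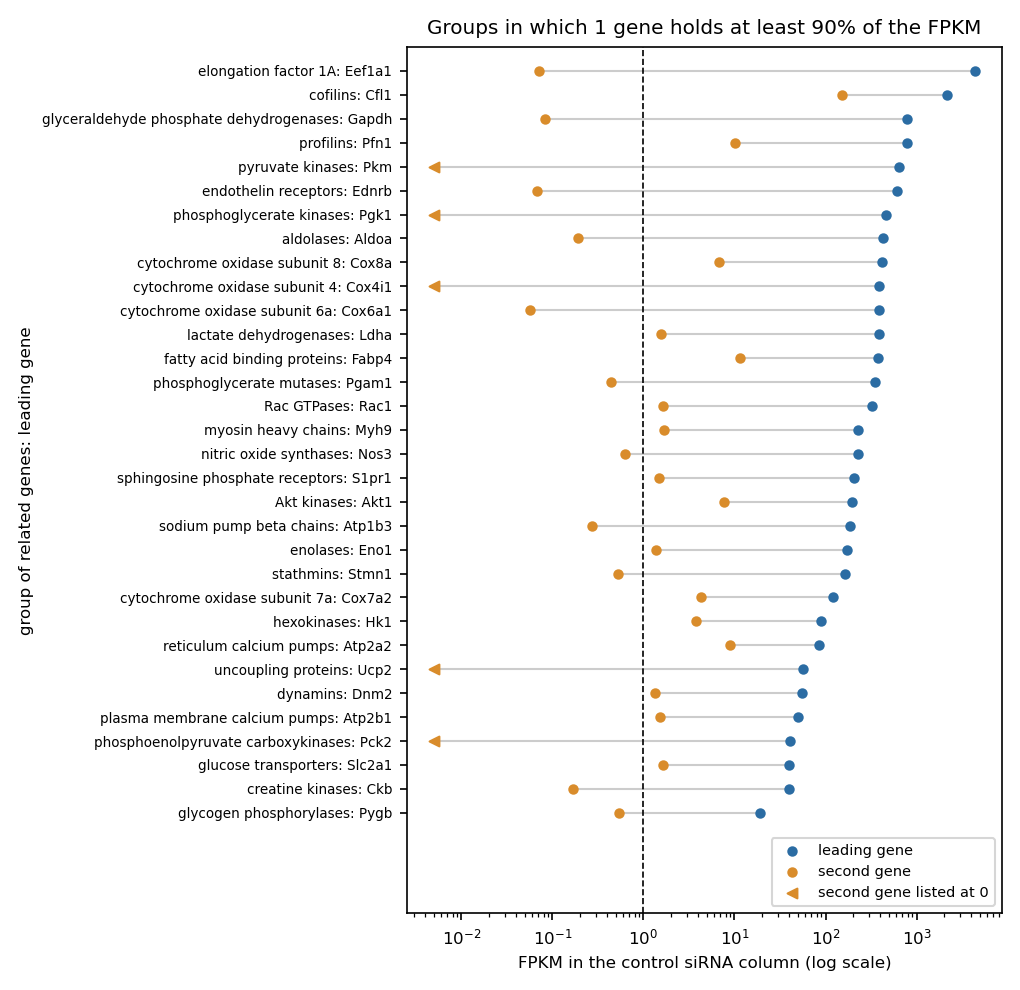
FPKM (x axis, log scale) of the leading gene (blue) and the second gene (orange; a triangle at the left edge where it is listed at 0) in 32 of the 33 groups of related genes in which the leader holds at least 90% of the FPKM. In many rows, such as the endothelin receptors with Ednrb at 607 and Ednra at 0.0681 FPKM, the second gene lies left of the threshold of 1 FPKM.

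Of 37 genes of fatty acid uptake, binding and oxidation 28 were expressed, with a median of 10.5 FPKM. Fabp4, the fatty acid binding protein of capillary endothelium and fat cells, had 377 FPKM, Fabp5 11.4, and Gpihbp1 353, while the fatty acid receptor Cd36 was at 0.0815 FPKM and lipoprotein lipase (Lpl) at 1.02. Caveola genes were high: Ptrf (cavin-1) 372, Cav1 350, Ehd2 289, Prkcdbp 247 and Cav2 156 FPKM, with muscle Cav3 at 0. In redox and mediator enzymes 28 of 40 passed, with Prdx1 at 692, Sod1 at 426 and the haem-degrading Hmox1 at 346 FPKM. Ptgs1 (COX-1) at 19.0 and Ptgs2 (COX-2) at 10.5 FPKM were both expressed, and prostacyclin synthase Ptgis had 33.6, against 0.0440 for thromboxane synthase Tbxas1. The water channel Aqp1 held 98.1% of the aquaporin FPKM with 184 FPKM.

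Several housekeeping complexes were expressed completely or nearly so. All 77 mitochondrial ribosomal protein genes passed with a median of 38.1 FPKM, as did all 34 tRNA synthetases, 17 ATP synthase genes, 13 RNA polymerase II subunits, 20 hnRNP genes and 9 MCM genes. Cytosolic ribosomal proteins passed in 80 of 84 cases with a median of 1070 FPKM and held 17.7% of the summed FPKM. Proteasome genes passed in 48 of 50 cases (median 97.5 FPKM), complex I in 36 of 37 (114 FPKM) and translation initiation factors in 54 of 55. Cytochrome c oxidase genes, which include tissue-specific forms, passed in 13 of 18 cases, and vacuolar ATPase genes in 18 of 26. In all, 17 of 134 families had more than 90% of members expressed.

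At the other end 29 families had fewer than 10% of members expressed and 9 had none. Of 1116 olfactory receptor genes 3 passed, the highest being the pseudogene Olfr856-ps1 at 8.62 FPKM, and of 332 vomeronasal receptors 1 passed. None of 61 defensins, 52 keratin-associated proteins, 38 taste receptors, 28 surfactant and secretoglobin genes or 10 MHC class II genes passed. Excitable-cell genes were sparse: 8 of 92 potassium channels, led by Kcnq1 at 21.7 and the endothelial Kcnn4 at 14.1 FPKM, 1 of 26 glutamate receptors and 1 of 17 GABA receptors (Gabbr1 at 14.2 FPKM). Several of these families kept exactly 1 gene above threshold, such as Klk8 at 12.5 FPKM among 28 kallikreins, Rhox5 at 32.3 among 41 Rhox and Xlr genes and Ugt1a7c at 34.5 FPKM among 18 UDP-glucuronosyltransferases.

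**Figure D5:**
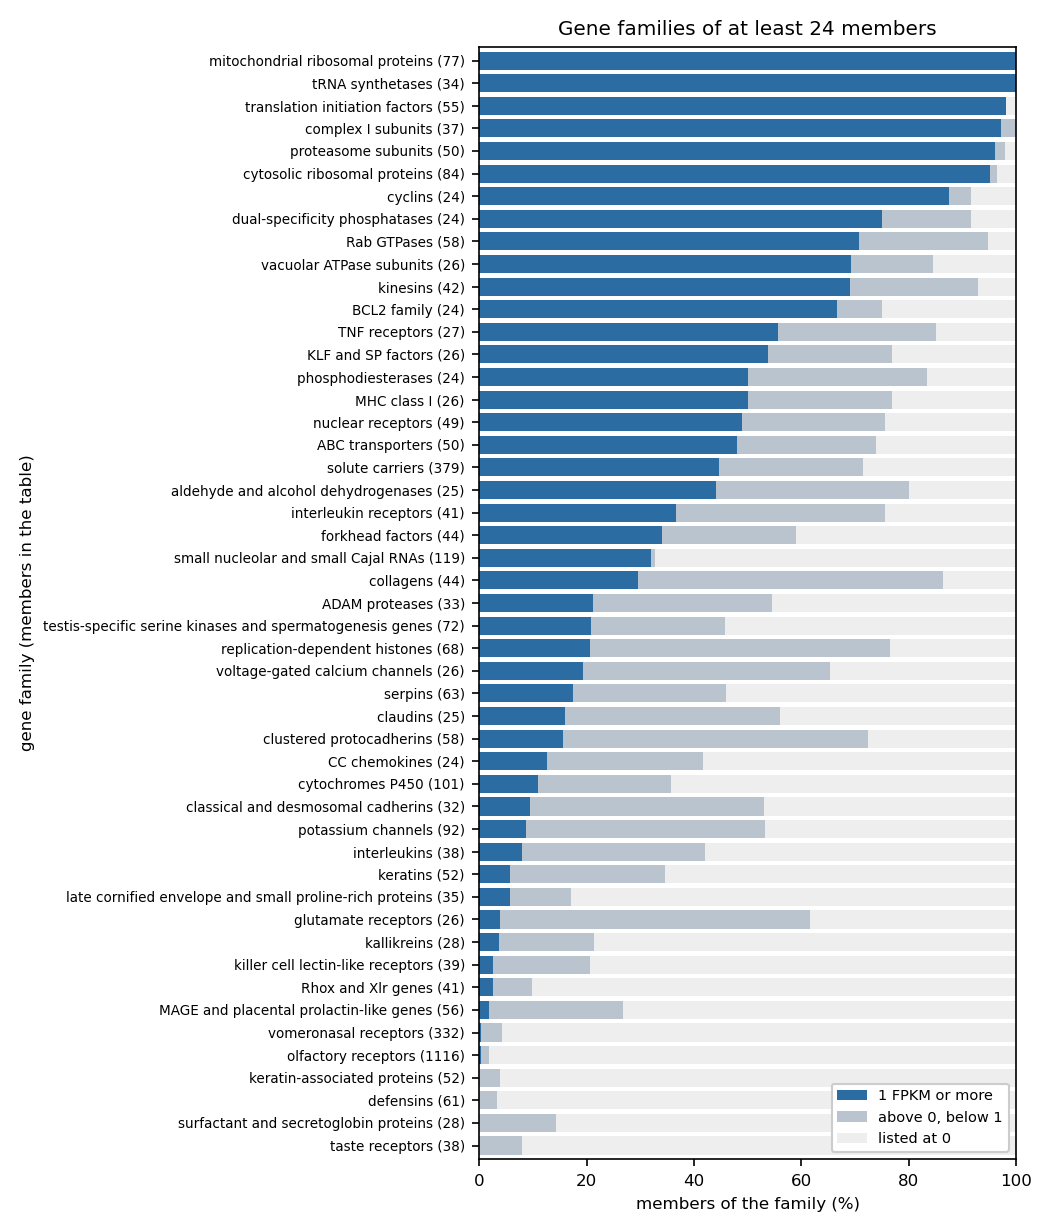
Share of members (x axis, percent) at 1 FPKM or more (blue), above 0 but below 1 FPKM (grey) and listed at 0 (light) in gene families of at least 24 members (rows, member number in brackets). Translation and respiration families fill the top (77 of 77 mitochondrial ribosomal genes), and sensory receptors, defensins and taste receptors the bottom (3 of 1116 olfactory receptors).

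Antigen presentation was limited to class I. B2m, the light chain, had 706 FPKM, H2-D1 594, H2-K1 101 and the peptide-loading protein Tapbp 66.7. The class II genes were at 0 or, for H2-DMa, at 0.215 FPKM, and their activator Ciita was listed at 0. Of pattern recognition genes 19 of 31 passed: the double-stranded RNA kinase Eif2ak2 at 47.2, the RNA sensor Ddx58 (RIG-I) at 34.0, the lipopolysaccharide receptor Tlr4 at 23.4 with its partner Ly96 at 20.1, and Tlr3 at 15.7 FPKM. Tlr2 was at 0.746 and Tlr9 at 0. Interferon-induced Ifitm3 had 723 FPKM. Chemokine genes were led by Cxcl12 at 101, Ccl2 at 33.7 and Cx3cl1 at 30.9 FPKM, and interleukins were low, 3 of 38 expressed, with Il6 at 2.18 and Il33 at 2.17 FPKM.

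In coagulation the genes that keep blood fluid stood above the clotting factors. Procr, the protein C receptor, had 297 FPKM, the activators of plasminogen Plau and Plat 281 and 144, thrombomodulin Thbd 144 and the tissue factor inhibitor Tfpi 56.6. Tissue factor F3 was at 0.778 and factor VIII (F8), which endothelial cells make in vivo, at 0.382 FPKM, and the fibrinogen genes Fga, Fgb and Fgg were listed at 0. Over the whole list 16 of 49 passed.

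In the proliferation list 32 of 32 genes were expressed, with a median of 56.6 FPKM; by family, 21 of 24 cyclins and 17 of 18 cyclin-dependent kinases passed. Cdk4 had 299 FPKM, Pcna 262, Ccnd1 199, Birc5 132, Ccnb1 95.5, Top2a 90.1 and Mki67 24.6. Genes of arrest were high in the same column, with 15 of 17 expressed. Cdkn2a, which codes for p16 and p19ARF, had 98.7 FPKM, Cdkn1a (p21) 92.8 and Cdkn1b (p27) 38.2, and telomerase components Terc and Tert were at 0.134 and 0.129 FPKM. Trp53 had 14.1 FPKM. Replication-dependent histone genes, whose transcripts lack a poly(A) tail, passed in 14 of 68 cases and reached 17.0 FPKM at most (Hist1h2bc), against 440 for the replacement histone H2afz. Of the mesenchymal transition list 16 of 21 genes were expressed, against 46.2% of all genes, with a list median of 5.65 FPKM. Vim, S100a4 at 745 and Snai1 at 81.6 FPKM stood high and Twist1 was at 1.68. Among the members below threshold were Cdh2 at 0.334 and Col1a1 at 0.127.

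Protein-coding genes made up 10614 of the expressed genes, and 52.0% of the 20414 protein-coding genes in the table passed. Of 800 lincRNA genes 10.3% passed. MicroRNA genes were 1087 rows, of which 68 passed, and 67 of these could be placed on the genome. Of the 67 rows, 40 lay inside another gene on the same strand, and for 39 rows that host was expressed. The most abundant containing gene was taken as host, and some rows share a host, such as Cdk9. Rows that did not pass were not examined, so the count has no background. The best known endothelial case was Mir126 at 165 FPKM, listed at 0 in 1 of the 4 columns, which lies within Egfl7 (521 FPKM; 410 to 521 over the columns). Its precursor of 73 bases is shorter than the 215 bases deducted in the fragment step, and all of its 31-base words also occur in another gene, so the row cannot be told apart from its host. Its mature product mmu-miR-126a-3p (RefSeq, GRCm38.p6, chr2:26591402-26591423, plus strand) is printed for identity with its seed, bases 2 to 8, in capitals.

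mmu-miR-126a-3p: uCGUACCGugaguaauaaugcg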

How the data were processed

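The authors deposited 1 table of FPKM for 23997 genes with 4 columns, 1 per condition; only the control siRNA column is described, and the other 3 serve as alternatives. The submitters' processing notes name TopHat2 (known as a spliced aligner), Cuffdiff (which estimates FPKM) and the mm10 build. Versions, annotation, strandedness, library selection and how replicates entered are unstated in the labels. FPKM splits fragments that fit several genes by an estimate and is unstable for short transcripts: 1272 rows of small RNAs or transcripts under 300 nt held 2.14% of the summed FPKM.

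Symbols were matched to GENCODE M21 (22702 directly, 912 by synonym, 383 not matched), which gave positions, transcript lengths and 31-base words shared between genes. There were 134 families defined by symbol and 49 gene lists (1219 distinct genes in the table, 22 not in it; the list of mitochondrially encoded genes was not analysed here). The families, lists, groups of isoenzymes and members were chosen with earlier results of these data known. Off-family symbols were removed by name. A few genes are counted but not reported here by name. Named were the 30 most abundant annotated genes, up to 5 leading members per family, list members, and members of families with at most 3 expressed; genes of the closing section outside this rule were chosen after their values were seen. There is no test, since a condition has 1 column. In a simulated control siRNA column of 3595 genes 99.4% of calls at 1 FPKM were recovered, and estimated depth was 0.995 of the true depth. The simulation drew Poisson counts around the column's own values, at a lower depth and with 150 bases deducted. It held only genes with 1 transcript of more than 800 bases and no fragments shared between genes. It therefore cannot speak for genes with several transcripts or shared sequence. Python 3 with pandas, numpy and scipy was used.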

Additional observations from a re-analysis of the deposited data

How the results depend on the processing

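No paired analysis was possible because each condition has 1 column; for the same reason no replicate could be left out. The count of expressed genes ranged from 8817 (5 FPKM) to 11795 (0.5 FPKM), within 1.5 times the 11095 reported, and was 9612 when limited to long genes with under 10% shared 31-base words. Families with no expressed member went from 9 to 16 at 2 FPKM, 19 at 5 FPKM and 14 with long unshared genes. Of 182 lists and families, 169, 164 and 132 kept a count within 1.5 times at 0.5, 2 and 5 FPKM, 172 at 1 TPM, 178 when 1 FPKM was required in all 4 columns, and 151 with long unshared genes, where the other 31 were lower (housekeeping 18 to 8, glycolysis 27 to 16). The shares of the top 10, 100, 1000 and 5000 genes became 6.42%, 28.3%, 63.0% and 91.8% without small RNAs and short transcripts, 4.84%, 18.9%, 54.6% and 91.1% without genes that share 31-base words, and 6.02%, 21.7%, 56.5% and 90.2% without ribosomal protein genes. The share of TATAAA was 25.6% for genes at 0 when limited to genes above 0 in all columns or at 0 in all, and 7.29% in the top class when classes were taken from TPM; median CpG stayed at 2 and 17 in these and with genes of 1 start site, an alternative chosen after seeing the data. Groups with a leader of at least 90% numbered 28 without shared genes and 33 or 34 in the other columns. Low values near 1 FPKM and zeros of short transcripts are limited by depth.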

Other observations

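Some genes that many cell types use were near 0, and some genes known from other tissues were not. Lrp1, a large endocytic receptor, had 0.571 FPKM and did not reach 1 FPKM in any column (highest 0.902), and Igf1r was at most 0.0457 FPKM in the 4 columns. Fgf2, a growth factor that endothelial cells often make in culture, was listed at 0 here and reached 0.185 FPKM elsewhere. In contrast, the placental and testis homeobox gene Rhox5 had 27.7 to 38.5 FPKM across the 4 columns, the interneuron factor Lhx6 29.6 to 39.4, the cornified envelope gene Sprr1a 15.3 to 35.6, the neuronal tubulin Tubb3 22.8 to 30.5, and the epithelial interferon Ifne 4.34 to 5.99 FPKM.

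In the sex chromosome list 4 of 9 genes were expressed, a share close to the 46.2% of all genes. They were the Y-linked genes Ddx3y, Eif2s3y, Uty and Kdm5d at 14.5, 13.8, 2.97 and 2.85 FPKM. The other Y-linked members, Sry, Usp9y, Zfy1 and Zfy2, were listed at 0. Xist, which silences the second X chromosome in females, had 0.00442 FPKM. On the X chromosome 38.8% of protein-coding genes were expressed, against 41.6% to 60.1% on the autosomes and 10.5% of 38 on the Y chromosome.

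The ribosomal RNA precursor row Rn45s had 2181 FPKM and was between 577 and 2181 FPKM over the columns. The mitochondrial leucyl-tRNA synthetase Lars2, at 630 FPKM the highest of the 34 tRNA synthetases and 153 FPKM in the lowest column, was also highest in the control siRNA column. The pseudogene rows Gm12191 and Gm15772, with 1756 and 1419 FPKM, share 100% and 96.6% of their 31-base words with other genes.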
